A study of Rattus norvegicus with 18 samples.

Results

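The genes described here are those of homologous recombination, the Fanconi anemia pathway and their relatives among the repair genes, taken from the gene symbols of the deposited table by name. The name patterns were Fanc with 1 letter, Rad50 to Rad59 with any ending, Brca1 and Brca2, Xrcc1 to Xrcc6, Brip1, Palb2, and Msh or Mlh with 1 digit. Described are 24 genes of the 13188 in the table. By known function 16 of the 24 belong to homologous recombination or Fanconi repair, and the other 8 do not: Msh3 and Mlh3 act in mismatch repair, Msh5 in meiosis, Xrcc4, Xrcc5 and Xrcc6 in end joining, Xrcc1 in single-strand break repair, and Rad54l2 is a helicase-like cofactor of the androgen receptor. The names homologous recombination and Fanconi repair therefore cover 16 members, and the whole list is called the repair genes below.

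Homologous recombination mends broken chromosomes by copying the missing stretch from the sister chromatid. BRCA1 helps to open the broken end into single-stranded DNA, PALB2 joins BRCA1 to BRCA2, and BRCA2 prepares the single strand for the exchange with the matching sequence. The Fanconi core complex attaches ubiquitin to its substrates when DNA strands are crosslinked to each other, and so starts a repair that ends in recombination, while mismatch repair corrects copying errors behind the replication fork. Many of these genes are transcribed most in cells that replicate their DNA.

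Poly-A RNA was sequenced from Rat1 fibroblasts of the line HO15.19, a rat line in which both copies of myc were removed, so that every library, controls included, comes from a myc-/- background. Human MYC was put back by stable viral infection, from an exogenous promoter, and some cultures were transfected with 40 nM of a control siRNA (siCtrl) or with siAHR-2 or siAHR-5, siRNAs against the aryl hydrocarbon receptor AHR, and harvested 48 h later. The 18 libraries formed 6 groups of 3: myc-/- siCtrl and myc-/- + MYC, then myc-/- (not transfected), myc-/- + MYC siCtrl, and myc-/- + MYC with siAHR-2 or with siAHR-5. Values were log2 expression normalized by the authors, in 2 sets on different scales, here called the 6-library set (the first 2 groups) and the 12-library set (the other 4), and comparisons were made only inside a set. By the labels, in the 6-library set the transfected group was the one without MYC, and in the 12-library set it was the one with MYC, so that transfection and MYC cannot be told apart in either. The column names of the 6-library set do not mention transfection, and its label there was not checked by other data. A single line was used, and the labels do not say that the 3 libraries of a group came from separate cultures, so p-values measure the spread between these libraries.

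Values ranged from 3.74 to 14.6 over the repair genes, and from 7.26 without Mlh3, the only member near the bottom of the scale. The fibroblast markers Vim (18.3 to 19.7) and Fn1 (17.7 to 20.6) were high in all 18 libraries, while Col1a2, also a fibroblast gene, lay between 3.64 and 4.13. Of the 8 fibroblast markers, Col1a1, Fn1, Pdgfrb and Thy1 fell with MYC in both sets under limma (log2FC -1.73 and -5.95 for Col1a1), and Col3a1 rose in the 6-library set (1.30), while Thy1 rose with siAHR-5 against siCtrl (0.75). Of the 7 markers of other cell types, Krt8, an epithelial keratin gene, rose with MYC in both sets, with means of 6.08 and 7.78 and then 7.70 and 8.87. The other epithelial markers lay lower, Epcam at 1.22 to 2.42 and Cdh1 at 3.61 to 4.31, and the immune and endothelial ones at 2.84 to 4.65 (Ptprc), 6.76 to 7.55 (Cd68), 6.47 to 7.57 (Pecam1) and 4.70 to 7.18 (Cdh5), none past the cutoffs with MYC. The log2 of the summed linear values of the epithelial list was 6.43 to 6.55 in myc-/- siCtrl, 7.87 to 7.97 in myc-/- + MYC, 7.73 to 7.89 in myc-/- and 8.75 to 9.09 in myc-/- + MYC siCtrl, and that of the fibroblast list 20.80 to 20.82, 19.87 to 19.95, 21.95 to 22.18 and 20.21 to 20.24. The part of these markers in the effects on the repair genes was not tested. The library myc-/- replicate 2 stood apart from the other two of its group, with a root mean square distance of 0.168 over all genes against 0.105 and 0.101. Rat Myc lay at 9.16 to 9.47 in myc-/- siCtrl, 8.01 to 8.08 in myc-/- + MYC, 10.8 to 10.9 in myc-/- and 8.16 to 8.27 in myc-/- + MYC siCtrl, but which part of the gene was deleted is not given in the sources used here, so this is no check of the labels. In myc-/- + MYC cells Ahr lay at 13.2 to 13.3 with siCtrl, at 11.97 to 12.03 with siAHR-2 and at 11.8 to 11.9 with siAHR-5.

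The promoters of 20 of the 24 members were found in the RefSeq table of the rat assembly GRCr8. The 4 below are shown because they belong to members that rose with MYC (Brca2, Msh3 and Brca1) or hold the canonical MYC motif (Rad50). Each is the 250 bases before the start that the table uses, 5′ to 3′ on the strand of the gene, with matches to the searched motifs in capitals. Brca2 is at chr12:4895197-4895446 on the plus strand, Msh3 at chr2:25320858-25321107, Brca1 at chr10:86977582-86977831 and Rad50 at chr10:38362101-38362350, all 3 on the minus strand.
Brca2: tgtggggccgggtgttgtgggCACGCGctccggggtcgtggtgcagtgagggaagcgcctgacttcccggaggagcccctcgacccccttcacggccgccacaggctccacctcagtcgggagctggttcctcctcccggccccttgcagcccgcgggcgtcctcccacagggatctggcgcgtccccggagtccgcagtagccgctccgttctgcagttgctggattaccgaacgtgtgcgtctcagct
Msh3: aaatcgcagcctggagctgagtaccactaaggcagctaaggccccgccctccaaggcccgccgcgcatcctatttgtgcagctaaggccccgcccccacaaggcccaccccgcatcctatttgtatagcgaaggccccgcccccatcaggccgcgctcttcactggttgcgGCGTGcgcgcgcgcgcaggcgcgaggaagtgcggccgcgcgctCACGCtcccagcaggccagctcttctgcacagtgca
Brca1: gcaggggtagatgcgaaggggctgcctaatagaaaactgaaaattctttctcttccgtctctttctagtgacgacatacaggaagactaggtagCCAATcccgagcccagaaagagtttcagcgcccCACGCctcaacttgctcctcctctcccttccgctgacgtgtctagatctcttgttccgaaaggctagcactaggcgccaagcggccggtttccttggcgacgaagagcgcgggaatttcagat
Rad50: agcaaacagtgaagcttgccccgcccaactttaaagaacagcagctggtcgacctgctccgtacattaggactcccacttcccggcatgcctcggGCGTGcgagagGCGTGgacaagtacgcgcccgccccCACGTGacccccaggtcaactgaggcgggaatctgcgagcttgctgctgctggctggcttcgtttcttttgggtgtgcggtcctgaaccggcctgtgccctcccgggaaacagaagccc
The motifs were searched on both strands. The canonical E-box CACGTG, bound by MYC with MAX, was in 1 of the 20 promoters, that of Rad50, and in 5.59% of all 33469 promoters of the same length. Its variant CACGCG was in 3 (Brca2, Fancc and Palb2; 7.14% of all), and GCGTG, the core of the AHR response element, in 12 (25.9% of all); CACGCG holds GCGTG on its opposite strand, so a match to the former is also a match to the latter. The CCAAT box (CCAAT) was in 7 (34.0% of all), among them Brca1, and an E2F motif (TTTGGCGC, TTTCGCGC, TTTCCCGC or TTTGCCGC) was in Fancc and Rad51d (1.73% of all). The members' promoters had a median GC content of 59.0% against 51.2% over all promoters, and the motif shares were not matched for it. Fancb, Fancl, Rad52, Xrcc1, Xrcc5 and Mlh3 held none of these letters in the window. The table had no promoter for Rad54b, Xrcc2, Msh5 and Rad54l2.

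The first question was what MYC changed in the myc-/- fibroblasts. A gene was counted as risen or fallen when limma gave a fold of at least 1.5 and an adjusted p of at most 0.01 over all genes. In the 6-library set, 5 of the 24 repair genes rose with MYC (Fancb, Brca2, Rad52, Msh3 and Msh5) and 1 fell (Xrcc5), where 26.8% of all genes passed (12.5% higher and 14.3% lower). In the 12-library set, 7 rose (Fancb, Brca1, Brca2, Rad54l, Xrcc1, Msh3 and Msh5) and none of the 24 fell under limma, where 25.5% of all genes passed (10.8% higher and 14.7% lower). The shares of members that passed, 25% and 29.2%, were near those backgrounds. At an unadjusted p below 0.05 in the 12-library set, 18 members were higher and 4 lower. Of all 13188 genes, 8875 had such a p there, 4351 higher and 4524 lower. Of the members that passed both cutoffs, 5 of 6 in the 6-library set and 7 of 7 in the 12-library set were higher. The median log2FC of the members was 0.09 in the 6-library set and 0.37 in the 12-library set, beside 0.00 over all genes in both. By adjusted p below 0.05 alone, 11 members were higher and 5 lower with MYC in the 6-library set (all genes 76.2%, 37.3% higher and 39.0% lower), and 17 were higher and 4 lower in the 12-library set (all genes 64.7%, 31.6% higher and 33.1% lower). The groups of 3 did not overlap for 15 members, 11 higher and 4 lower, in the former (all genes 78.8%, 37.9% higher and 40.9% lower) and for 23, 19 higher and 4 lower, in the latter (all genes 70.5%, 33.8% higher and 36.7% lower).

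Fancb, Brca2, Msh3 and Msh5 rose in both sets, 4 of 24 members where 6.87% of all genes rose in both, and no member fell in both (8.91% of all genes) or passed in opposite directions. Of the 16 members that act in homologous recombination or Fanconi repair, 3 rose in the 6-library set and 4 in the 12-library set. Of the other 8, 2 rose and 1 fell in the 6-library set, and 3 rose in the 12-library set. Of all genes, 12.5% rose and 14.3% fell in the 6-library set, and 10.8% rose and 14.7% fell in the 12-library set. In either direction 18.8% and 25% of the 16 passed and 37.5% of the 8 in both sets, beside 26.8% and 25.5% of all genes. The 2 sets share no library.

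**Figure D1:**
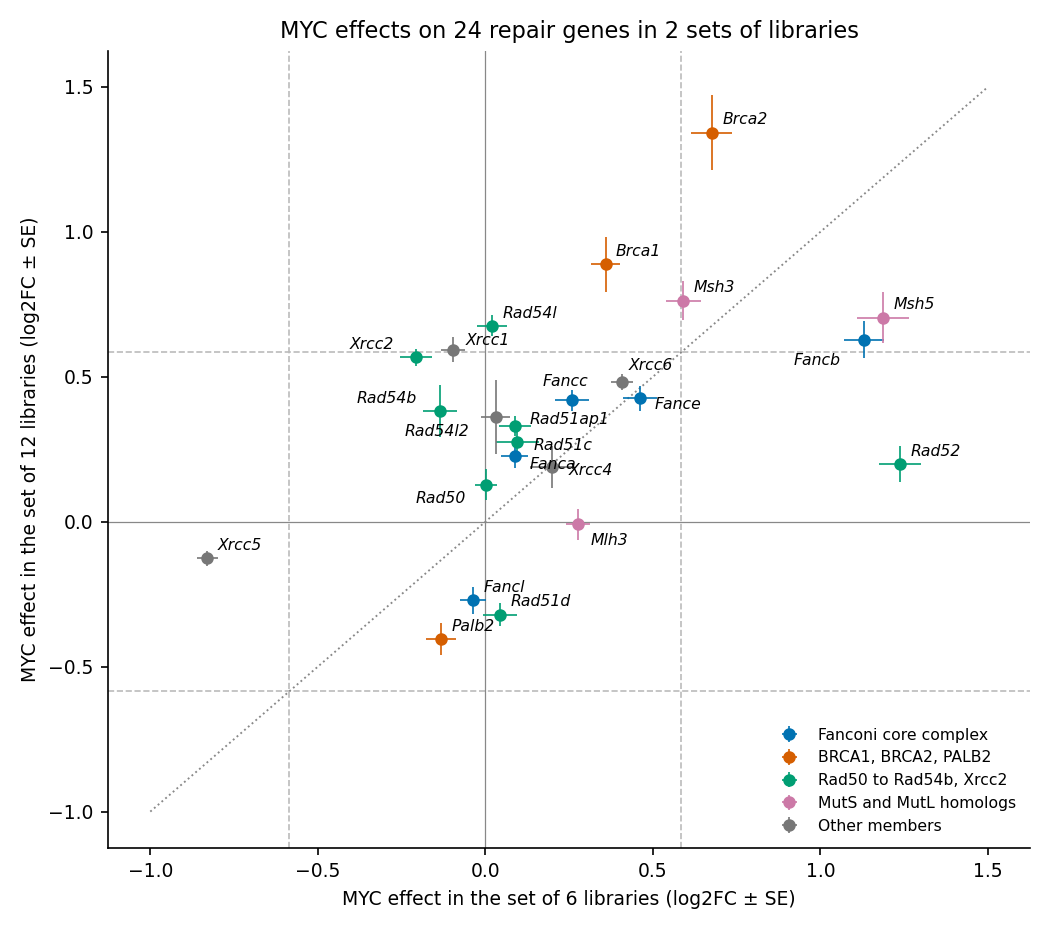
MYC effects on the 24 repair genes as log2FC with SE, in the 6-library set (x axis) and in the 12-library set (y axis), each from 3 libraries against 3. Colours give the role, dashed lines the 1.5-fold cutoff and the dotted line equal effects; Fancb, Brca2, Msh3 and Msh5 lie past the cutoff in both sets, Rad52 lies far to the right of the dotted line, and Brca2, Xrcc2, Xrcc1, Rad54l and Xrcc5 lie above it.

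Among the Fanconi core genes, Fancb, which codes for an X-linked subunit needed to activate the ligase of the complex, rose in both sets. Its values were 9.55, 9.50 and 9.53 in myc-/- siCtrl and 10.66, 10.77 and 10.55 in myc-/- + MYC. In the 12-library set they were 10.49, 10.55 and 10.61 in myc-/- and 11.07, 11.26 and 11.20 in myc-/- + MYC siCtrl. Every library with MYC lay above every library without it in its set. The log2FC was 1.13 (SE 0.0601, limma adjusted p = 1.22e-08) in the 6-library set, a fold of 2.19, and 0.63 (SE 0.0640, limma adjusted p = 2.74e-04) in the 12-library set. The smaller effect in the 12-library set differed by -0.50 from that in the 6-library set (limma adjusted p = 3.04e-04), short of the fold cutoff.

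Effects on the other core genes were smaller, and none passed the fold cutoff. Fance, the subunit that binds the substrate FANCD2, was higher with MYC by 0.46 and 0.43 (limma adjusted p = 5.78e-06 and 2.47e-04), and Fancc by 0.26 and 0.42 (6.54e-04 and 1.33e-04). Fanca had a log2FC of 0.09 (limma adjusted p = 0.0650) and 0.23 (0.00413). Fancl, which codes for the ubiquitin ligase itself, was the one core gene with a negative log2FC in both sets, -0.04 (limma adjusted p = 0.398; -0.0147 without myc-/- + MYC replicate 1) and -0.27 (0.00268). The gene model of Fancl overlaps Vrk2, which had a log2FC of -0.62 and -0.65, and since the labels state no strand setting for the counting, reads of the 2 genes cannot be told apart. Fanca overlaps Zfp276 and Fancc overlaps Aopep, partners without values in these data. The same limit on reads holds for these and for every overlap named below.

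Brca2, which acts on the single-stranded end before strand exchange, rose in both sets and had the highest log2FC of the members in the 12-library set. Its values were 11.55, 11.38 and 11.29 in myc-/- siCtrl against 12.15, 12.07 and 12.04 in myc-/- + MYC, and 12.29, 11.92 and 12.38 in myc-/- against 13.65, 13.49 and 13.47 in myc-/- + MYC siCtrl. The groups did not overlap in either set. The log2FC was 0.68 (SE 0.0618, limma adjusted p = 1.33e-06), a fold of 1.60, and 1.34 (SE 0.128, limma adjusted p = 2.07e-04), a fold of 2.54. The lowest myc-/- value was that of replicate 2, without which the log2FC in the 12-library set was 1.20. Brca2 overlaps N4bp2l1, whose log2FC was 0.77 and 0.14.

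Brca1, which acts in end resection and in the choice of the repair pathway, rose in the 12-library set. Its values there were 12.73, 12.40 and 12.74 in myc-/- against 13.50, 13.50 and 13.53 in myc-/- + MYC siCtrl, with a log2FC of 0.89 (SE 0.0958, limma adjusted p = 3.53e-04) and of 0.78 without myc-/- replicate 2. In the 6-library set the values were 12.03, 11.96 and 11.92 against 12.38, 12.35 and 12.27. These groups did not overlap either, but the log2FC of 0.36 (SE 0.0423, limma adjusted p = 1.18e-05) stayed below the fold cutoff. Palb2, the bridge between the BRCA proteins, had negative values in both sets, -0.13 (limma adjusted p = 0.0163) and -0.40 (0.00105), opposite in sign to both of its partners.

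The genes of strand exchange gave a divided picture. Rad52, which anneals single strands, rose in the 6-library set with the highest log2FC of all members there. Its values were 10.00, 9.80 and 10.00 in myc-/- siCtrl and 11.21, 11.20 and 11.10 in myc-/- + MYC, a log2FC of 1.24 (SE 0.0627, limma adjusted p = 8.05e-09) and a fold of 2.36. In the 12-library set they were 10.74, 10.93 and 10.76 in myc-/- and 10.98, 11.00 and 11.05 in myc-/- + MYC siCtrl. The groups were separate there too, but by little, and the log2FC of 0.20 (SE 0.0629, limma adjusted p = 0.0324) did not pass. The effect was smaller by 1.04 on the log2 scale in the 12-library set (difference of -1.04, SE 0.0951, limma adjusted p = 3.02e-07). Rad52 overlaps Wnk1, whose log2FC was -0.20 and -0.37.

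Rad54l, the motor protein of strand invasion and exchange, showed the reverse. In the 6-library set its values were 11.36, 11.37 and 11.31 without MYC and 11.44, 11.32 and 11.34 with it, overlapping groups with a log2FC of 0.02 (SE 0.0451, limma adjusted p = 0.703). In the 12-library set they were 12.27, 12.17 and 12.26 without MYC and 12.89, 12.93 and 12.91 with it. There the groups were far apart and the log2FC was 0.68 (SE 0.0361, limma adjusted p = 1.75e-05), with a difference of 0.66 between the sets (SE 0.0641, limma adjusted p = 6.15e-07). The overlapping gene Lrrc41 had negative values in both sets, -0.35 and -0.64. Rad54b, a relative of Rad54l, had a log2FC of -0.14 (limma adjusted p = 0.0316) and 0.38 (0.0102).

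Rad51ap1, which stimulates strand exchange, had a log2FC of 0.09 (limma adjusted p = 0.109; 0.0462 without myc-/- siCtrl replicate 3) and 0.33 (3.55e-04). Rad50, a subunit of the complex that first binds broken ends, had one of 0.00 (limma adjusted p = 0.958, 95% interval -0.07 to 0.08) and 0.13 (0.0815, 95% interval -0.0041 to 0.26), the latter 0.0774 without myc-/- replicate 2. Rad50 is the member with CACGTG in the printed promoter.

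Xrcc2, Rad51c and Rad51d, whose products act together in recombination, had effects of mixed sign, and none passed in either set. Xrcc2 had 11.34, 11.24 and 11.26 in myc-/- siCtrl and 11.10, 11.00 and 11.12 in myc-/- + MYC, a log2FC of -0.21 (SE 0.0474, limma adjusted p = 0.00207). Its values in the 12-library set were 11.999, 11.98 and 11.94 in myc-/- and 12.56, 12.53 and 12.53 in myc-/- + MYC siCtrl. The log2FC there was 0.57 (SE 0.0302, limma adjusted p = 1.73e-05), a fold of 1.48 that lay just under the cutoff and passed it after median centring or quantile normalization (0.61 in both). The groups were separate in both sets and in opposite orders, and the difference of 0.77 (SE 0.0641, limma adjusted p = 1.02e-07) was the highest positive one among the members. Rad51d had a log2FC of 0.04 (limma adjusted p = 0.460) and -0.32 (7.36e-04), and Rad51c one of 0.10 (0.195) and 0.28 (0.00269), of which the former was 0.0236 without myc-/- + MYC replicate 1.

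**Figure D2:**
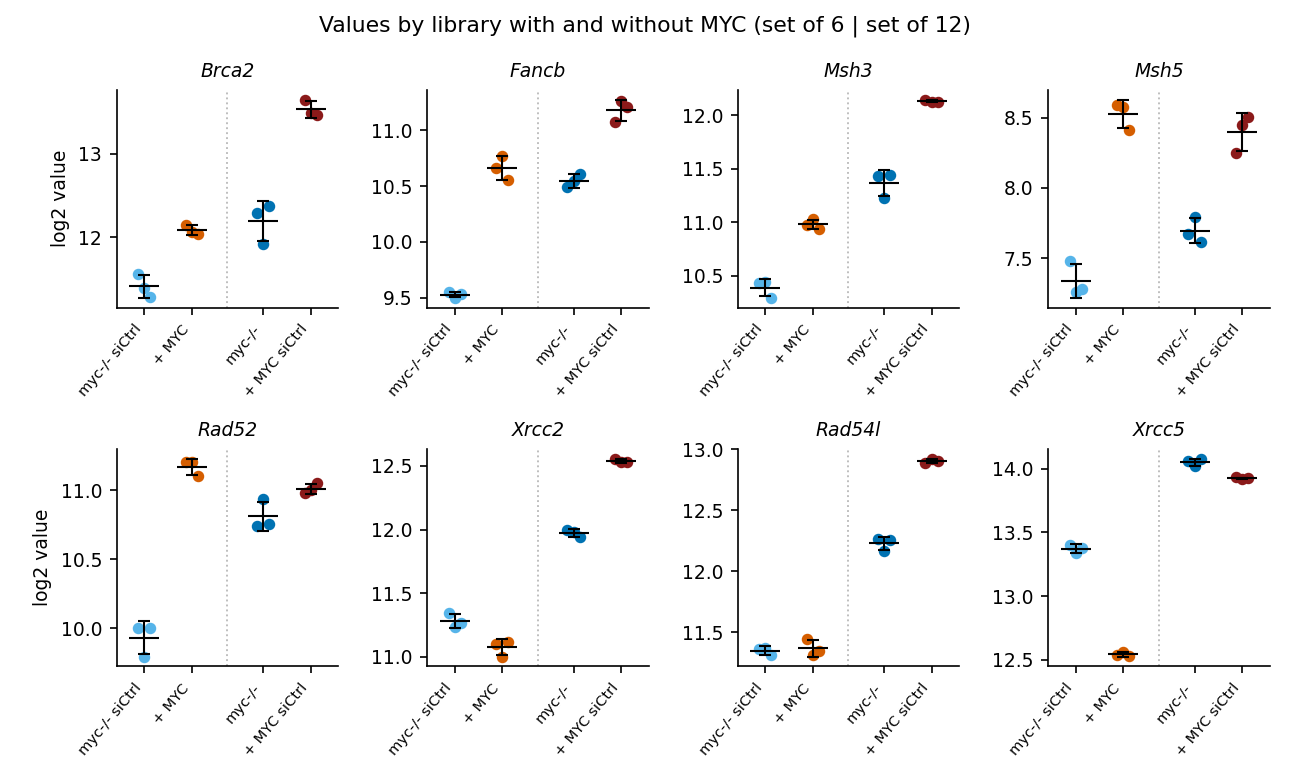
Deposited log2 values of 8 repair genes in each library, with the 6-library set left and the 12-library set right of the dotted line in each panel; points are libraries, bars the mean and SD of 3. Brca2, Fancb, Msh3 and Msh5 are higher with MYC on both sides, Xrcc2 changes order between the sides, Rad52 and Xrcc5 move mainly on the left, and Rad54l is separated on the right.

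Msh3, the mismatch repair gene for loops of several bases, rose in both sets, from 10.44, 10.44 and 10.30 to 10.97, 11.03 and 10.94 and from 11.43, 11.22 and 11.45 to 12.14, 12.12 and 12.13. Its log2FC was 0.59 (SE 0.0522, limma adjusted p = 9.91e-07) and 0.76 (SE 0.0658, limma adjusted p = 1.33e-04), without overlap between groups. In the 6-library set the Msh3 call was lost without myc-/- siCtrl replicate 3 (0.54) or myc-/- + MYC replicate 2 (0.57), and after median centring (0.55) or quantile normalization (0.54).

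Mlh3, a MutL gene, did not pass, with a log2FC of 0.28 (limma adjusted p = 2.11e-05) and -0.01 (0.916). Msh5, a MutS protein of meiotic crossing over that has no known part in mismatch correction, rose in both sets. It had 7.48, 7.26 and 7.28 in myc-/- siCtrl and 8.59, 8.58 and 8.41 in myc-/- + MYC, and 7.67, 7.79 and 7.62 in myc-/- and 8.25, 8.45 and 8.50 in myc-/- + MYC siCtrl. All libraries with MYC were above all without it in each set, with a log2FC of 1.19 (SE 0.0783, limma adjusted p = 7.81e-08) and 0.70 (SE 0.0880, limma adjusted p = 6.88e-04).

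The end joining genes came apart. Xrcc5 and Xrcc6 code for the Ku80 and Ku70 subunits of one heterodimer that caps broken ends. Xrcc5 was the only member to fall in either set, from 13.40, 13.34 and 13.38 in myc-/- siCtrl to 12.53, 12.56 and 12.53 in myc-/- + MYC. Its values in the 12-library set were 14.06, 14.02 and 14.07 in myc-/- and 13.93, 13.92 and 13.93 in myc-/- + MYC siCtrl. The libraries with MYC were the lower ones in both sets, by -0.83 (SE 0.0312, limma adjusted p = 6.71e-10), a fold of 0.562, and by -0.13 (SE 0.0252, limma adjusted p = 0.00549), which differed by 0.70 (SE 0.0469, limma adjusted p = 9.06e-09). Xrcc6 was higher with MYC in both sets, by 0.41 (limma adjusted p = 4.68e-07) and 0.48 (2.60e-05), below the fold cutoff, and its effects differed by 0.07 (0.229, 95% interval -0.03 to 0.18). Xrcc4, the ligase partner of this pathway, had a log2FC of 0.20 (limma adjusted p = 0.0149) and 0.19 (0.0622), the latter 0.115 without myc-/- + MYC siCtrl replicate 2.

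Xrcc1, the scaffold of single-strand break repair, had 13.85, 13.89 and 13.90 in myc-/- siCtrl and 13.85, 13.77 and 13.72 in myc-/- + MYC. In the 12-library set it had 13.91, 14.02 and 13.89 in myc-/- and 14.49, 14.56 and 14.55 in myc-/- + MYC siCtrl. The groups touched in the 6-library set (log2FC -0.10, SE 0.0359, limma adjusted p = 0.0305, up to 0.121 on leaving out a library) and were separate in the 12-library set (0.59, SE 0.0424, limma adjusted p = 5.95e-05), and the difference of 0.69 passed (SE 0.0606, limma adjusted p = 1.95e-07). Quantile normalization turned the direction in the 6-library set (0.0933, limma adjusted p = 0.0552), and the difference was then 0.60 (3.50e-06). The call in the 12-library set stood at the cutoff and was lost without myc-/- replicate 1 (0.58) or 3 (0.57) or without myc-/- + MYC siCtrl replicate 2 (0.58). Rad54l2 had a log2FC of 0.03 (limma adjusted p = 0.524) and 0.36 (0.0486), and the latter was 0.21 without myc-/- replicate 2.

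Whether the MYC effects differed between the sets was tested gene by gene in one fit of the 4 groups. The difference passed for 6 of the 24 members, where 16.5% of all genes passed (6.79% higher in the 12-library set and 9.67% lower). It was positive for Brca2, Rad54l, Xrcc2, Xrcc5 and Xrcc1 and negative for Rad52. With an adjusted p below 0.05 and no fold cutoff it was called for 9 members with a larger and 7 with a smaller value in the 12-library set (all genes 54.9%, 24.8% and 30.1%). Without myc-/- replicate 2 the difference for Brca2 was 0.53 and no longer passed. As the transfected group is on the opposite side of the comparison in the 2 sets, a different response to MYC and a response to transfection cannot be told apart here. The sets were also normalized on different scales, and the part of scale or batch in these differences cannot be told apart either.

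The other genes of these pathways were taken from a list of 69 symbols, of which 46 were in the table. With MYC, 4 rose and 4 fell in the 6-library set (median log2FC 0.04), and 10 rose and 3 fell in the 12-library set (median 0.23). In either direction that was 17.4% and 28.3% of the 46, beside 26.8% and 25.5% of all genes. Rpa3, a subunit of the protein that coats single-stranded DNA, rose in both sets by 0.82 and 1.23, the checkpoint kinase gene Chek2 by 0.92 and 0.92, and Uimc1, which brings BRCA1 to ubiquitin at breaks, by 0.78 and 0.60. Sfr1, a gene of recombination, fell by 0.84 and 0.91, and the nuclease gene Fan1 by 0.64 and 0.97.

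Cell cycle genes moved beside these results, and differently in the 2 sets. Of 28 listed, 27 were in the table. In the 6-library set, 1 rose with MYC and 8 fell, with a median log2FC of -0.13, and in the 12-library set, 9 rose and 2 fell, with a median of 0.42. In either direction that was 33.3% and 40.7% of the 27, beside 26.8% and 25.5% of all genes. The difference between the sets passed for 9 of the 27, all higher in the 12-library set (median 0.50 over the list, beside 0.15 for the repair genes). That difference passed for 16.5% of all genes. The part of cell cycle genes in the results for Rad54l, Xrcc2 and the other members was not tested. The RNA is that of whole cultures, so fewer cells in a state and less RNA per cell cannot be told apart.

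**Figure D3:**
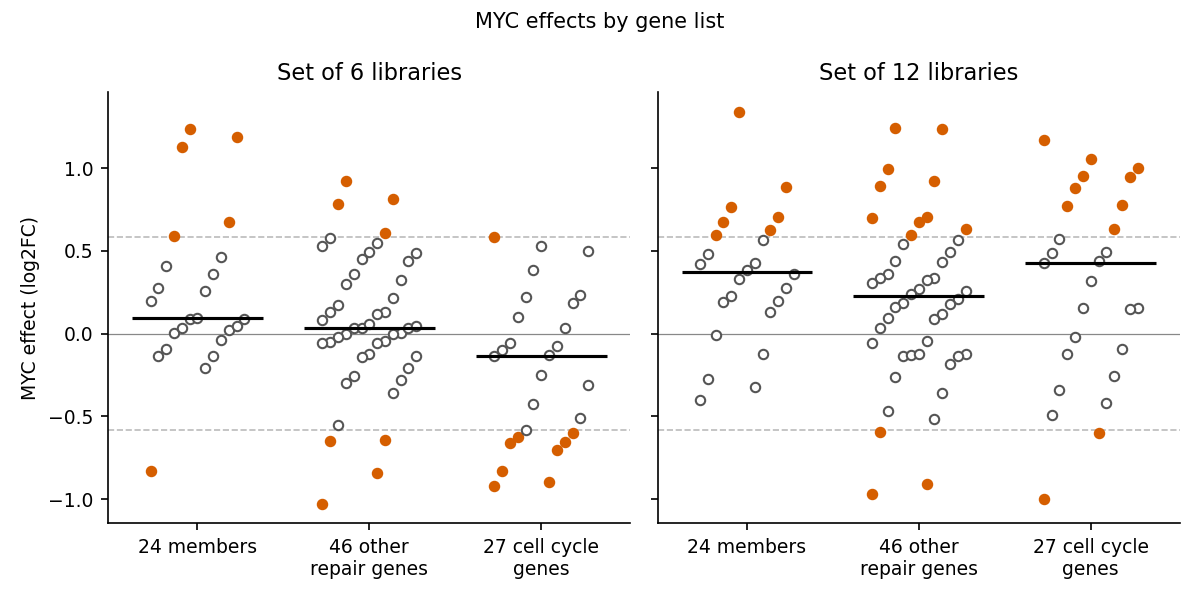
MYC effects (log2FC, y axis) of the 24 repair genes, of 46 other repair genes and of 27 cell cycle genes in the 6-library set (left) and in the 12-library set (right). Points are genes, filled where they passed both cutoffs, and black lines are medians; the median of the cell cycle genes is -0.13 on the left and 0.42 on the right, and that of the members 0.09 and 0.37.

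The second question was whether silencing AHR changed these genes in cells with MYC. No member passed with either siRNA under limma, although 10 had an unadjusted p below 0.05 with siAHR-2 and 12 with siAHR-5. Of all 13188 genes, 5326 had such a p with siAHR-2 and 6300 with siAHR-5. Both cutoffs were passed over all genes by 0.47% with siAHR-2 (0.159% higher and 0.311% lower) and 2.33% with siAHR-5 (1.48% higher and 0.849% lower). The 95% intervals of the members ran from -0.30 to 0.57 with siAHR-2 and from -0.48 to 0.39 with siAHR-5, so that each lay within the 1.5-fold cutoff on the log2 scale, and smaller differences were measurable. Both comparisons use the same 3 siCtrl libraries.

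With siAHR-2, 7 members were higher and 1 lower at a limma adjusted p below 0.05 with no fold cutoff, where 29.3% of all genes were (13.7% higher and 15.5% lower). With siAHR-5, none of the 24 was higher under limma at that adjusted p and 8 were lower, where 39.2% of all genes were (21.1% higher and 18.1% lower). At an unadjusted p below 0.05 with siAHR-5, 2 members were higher and 10 lower. Of all 13188 genes, 3498 were higher and 2802 lower at that unadjusted p. The libraries did not overlap with those of siCtrl for 11 members with siAHR-2, 8 higher and 3 lower (all genes 43.3%, 21.5% higher and 21.8% lower), and for 11 with siAHR-5, 1 higher and 10 lower (all genes 50.5%, 28.3% higher and 22.2% lower). The median log2FC of the members was 0.04 with siAHR-2 and -0.04 with siAHR-5, beside 0.01 over all genes for siAHR-5.

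Xrcc5 had values of 13.93, 13.92 and 13.93 with siCtrl, 13.81, 13.75 and 13.82 with siAHR-2 and 13.62, 13.56 and 13.55 with siAHR-5. The 3 groups did not overlap, with siAHR-5 lowest, and the log2FC was -0.13 (SE 0.0205, limma adjusted p = 0.00735) and -0.35 (SE 0.0228, limma adjusted p = 4.50e-04). Both values rest on the same siCtrl libraries, whose SD for Xrcc5 was 0.00509.

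The members called with an siRNA at this adjusted p are given here by comparison. With siAHR-2 the higher members were Msh5 (log2FC 0.38, limma adjusted p = 0.0166), Fance (0.32, 0.00345), Rad54b (0.28, 0.0125), Rad51d (0.27, 0.00345), Brca2 (0.20, 0.0492), Brca1 (0.18, 0.00303) and Msh3 (0.15, 0.0226). With siAHR-5 the lower ones besides Xrcc5 were Fancl (-0.35, limma adjusted p = 0.00171), Xrcc4 (-0.28, 0.0386), Fanca (-0.22, 0.00337), Xrcc2 (-0.17, 0.0173), Xrcc6 (-0.12, 0.00787), Msh3 (-0.08, 0.0297) and Rad54l (-0.07, 0.0300). Msh3 had 12.14, 12.12 and 12.13 with siCtrl, 12.30, 12.21 and 12.32 with siAHR-2, and 12.04, 12.05 and 12.06 with siAHR-5, without overlap. Its call with siAHR-2 was lost in 5 of the 6 fits that leave out a library, all but that without siAHR-2 replicate 2 (limma adjusted p up to 0.0773), and that with siAHR-5 in all 6 (up to 0.0900). In all, 4 of the 8 members called with siAHR-2 lost the call in at least 1 such fit. Beside Msh3 they were Brca2 (in 5 fits, all but that without siCtrl replicate 1, limma adjusted p up to 0.137), Msh5 (in 3, without each of the siAHR-2 libraries in turn, up to 0.0597) and Rad54b (in 1, without siAHR-2 replicate 1, 0.0501). With siAHR-5 it was again 4 of 8: Msh3, Xrcc4 (in all 6, limma adjusted p up to 0.104), Rad54l (in 4, without siAHR-5 replicate 1 or 3 or siCtrl replicate 2 or 3, up to 0.0896) and Xrcc2 (in 2, without siCtrl replicate 1 or 2, up to 0.0570).

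**Figure D4:**
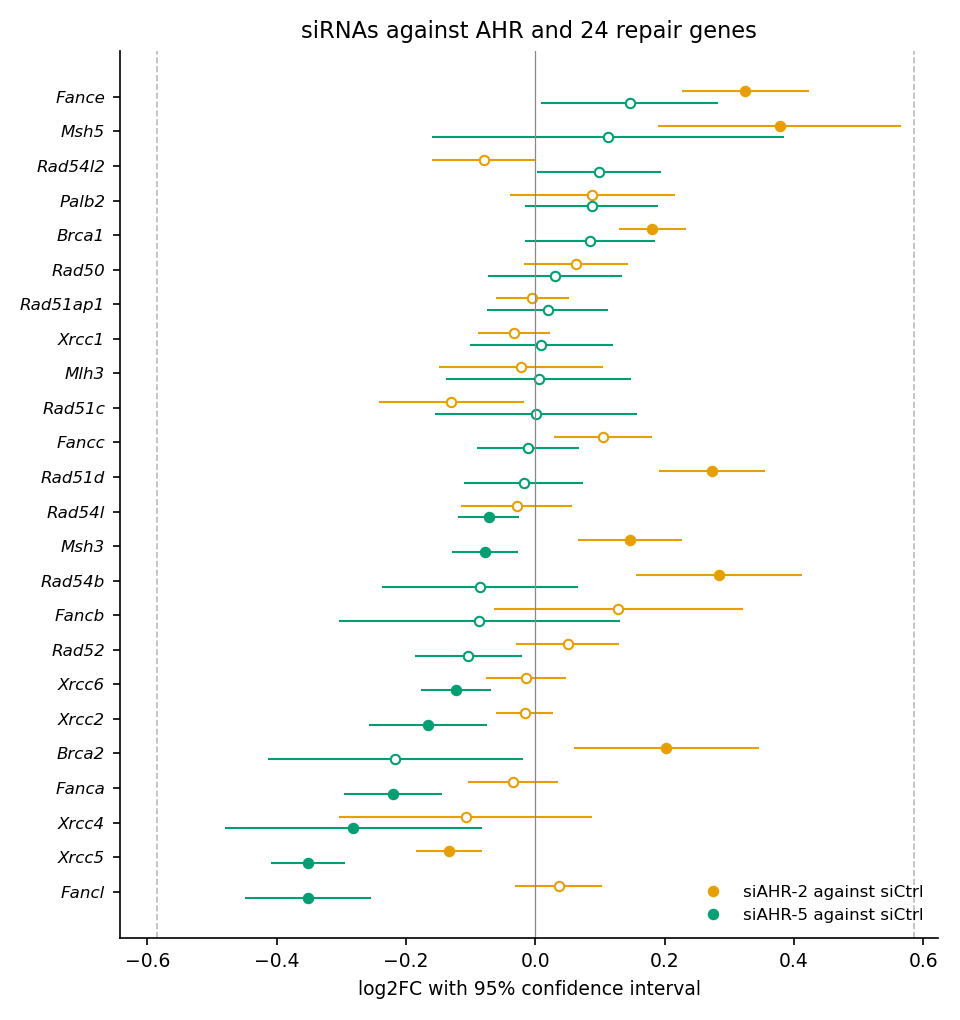
Effects of siAHR-2 and siAHR-5 against siCtrl on the 24 repair genes in myc-/- + MYC cells, as log2FC with the 95% confidence interval (x axis, 3 libraries against 3); filled points have a limma adjusted p below 0.05, and dashed lines mark the 1.5-fold cutoff. All intervals lie between the dashed lines, and the filled points of siAHR-5 are all on the lower side.

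The direct comparison of the siRNAs shares no control. Again no member passed both cutoffs (2.18% of all genes did, 1.33% higher and 0.849% lower with siAHR-5), although 16 had an unadjusted p below 0.05 under limma. Of these 16, 2 were higher and 14 lower with siAHR-5. Such a p was seen for 6176 of all 13188 genes, 3430 higher and 2746 lower. At a limma adjusted p below 0.05 alone, 11 members were lower with siAHR-5 than with siAHR-2 and 1 was higher, where 39.1% of all genes differed (22.1% higher and 17% lower). No overlap between the groups was seen for 17 members, 2 higher and 15 lower with siAHR-5 (all genes 49.5%, 27.2% higher and 22.2% lower). Leaving out a library ended the call of 2 of the 12, Fance (in 5 fits, all but that without siAHR-5 replicate 2, limma adjusted p up to 0.136) and Xrcc2 (in 4, without siAHR-5 replicate 3 or any 1 siAHR-2 library, up to 0.0755). The lower ones had Brca2 at their head, with 13.74, 13.68 and 13.79 with siAHR-2 and 13.37, 13.18 and 13.41 with siAHR-5 (log2FC -0.42, SE 0.0668, limma adjusted p = 0.00536). Fancl (-0.39, limma adjusted p = 7.25e-04), Rad54b (-0.37, 0.00204) and Rad51d (-0.29, 0.00128) followed, and the groups of each were separate. Rad54l2 (0.18, limma adjusted p = 0.00360) was higher with siAHR-5. Of the 27 cell cycle genes, 8 were higher and 4 lower with siAHR-2 against siCtrl at a limma adjusted p below 0.05 (median log2FC 0.02), 6 and 11 with siAHR-5 (median -0.04), and 6 and 15 with siAHR-5 against siAHR-2 (median -0.10). In either direction that was 44.4%, 63% and 77.8% of the list, beside 29.3%, 39.2% and 39.1% of all genes. The one cell cycle gene to pass both cutoffs was the replication factor gene Pcna, which fell with siAHR-5 against siCtrl (-0.84) and against siAHR-2 (-0.999). The fibroblast markers Pdgfrb (0.64) and Thy1 (0.67) rose with siAHR-5 against siAHR-2. The part of the cell cycle genes and of these markers in the siRNA values of the members was not tested.

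**Figure D5:**
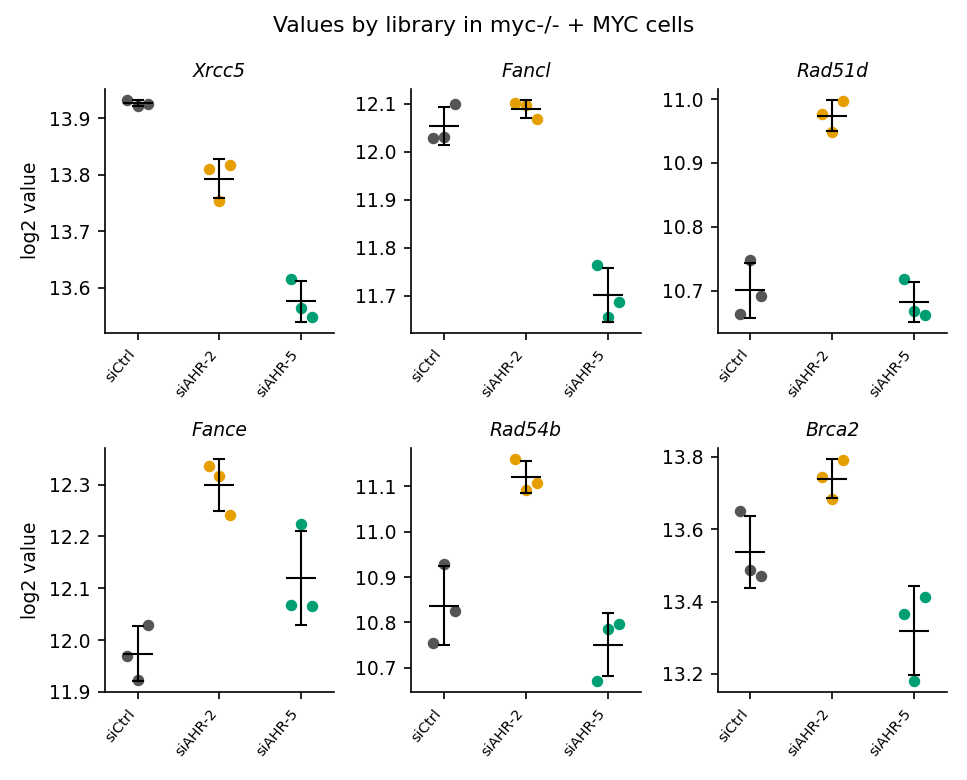
Deposited log2 values of 6 repair genes in the 9 libraries of myc-/- + MYC cells with siCtrl, siAHR-2 or siAHR-5; points are libraries, bars the mean and SD of 3, and the y axes have different ranges that do not start at 0. Xrcc5 and Fancl are lowest with siAHR-5, and Rad51d, Fance and Rad54b are highest with siAHR-2.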

How the data were processed

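Per the methods and the submitters' processing notes, read quality was assessed with the NGS-QC-Toolkit, HISAT2 2.1.0 served as aligner with rn6 as genome, genes under 10 reads in total were left out, and DESeq2 gave the normalization. The read counter, the annotation and the transformation are not given in the sources used here. The authors deposited log2 values for 13188 genes and 18 libraries without pooling; value columns without a sample numbered 0. The table is named log CPM, but 2 to the power of the values adds up to 86.3 to 161 times a CPM total in a library, so depth is unknown and the spread of 3 libraries is the error used. The first principal component (74.7% of the variance) separated the 2 sets.

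Comparisons used limma 3.58.1 with R 4.3.3 (lmFit, then eBayes with its trend option), 2-sided, on the groups compared, with Benjamini-Hochberg adjustment over all genes. Tested on simulated data with normal noise, the fits recovered 187 to 198 of 200 genes changed by a log2FC of 1, among 13188 genes. Smaller changes, such as most of those of the members, were not simulated. Members and lists were chosen with earlier results of these data known, and 3 of the 27 genes taken by the name patterns are not reported here. Values per library are given for members past the cutoffs in both MYC comparisons, in an siRNA comparison or in the difference, and for the 3 members of largest change in each MYC comparison; Xrcc5, Msh3 and Brca2 in the siRNA libraries were chosen after their values were seen. Alternatives were the cutoff, the scaling (median centring or quantile), no trend, a mean of at least 5, a pseudocount of 1, all libraries of the set in one fit, the replicate block, and leaving out each library. Promoters and overlaps of gene models come from RefSeq GRCr8, and no coordinates were carried between builds. Figures were drawn with matplotlib 3.10.9.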

Additional observations from a re-analysis of the deposited data

Results flagged for a closer look

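The MYC effect differed between the 2 sets of libraries, by limma's test of the difference (12-library minus 6-library set, log2 scale) and past both cutoffs, for 6 repair genes. The differences were 0.67 for Brca2, -1.04 for Rad52, 0.66 for Rad54l, 0.77 for Xrcc2, 0.70 for Xrcc5 and 0.69 for Xrcc1. The side of the comparison that was transfected also differs between the sets, and the cell cycle list had a median difference of 0.50. Their part in these differences cannot be told apart from that of MYC in the former case and was not tested in the latter. The 2 sets were also normalized on different scales, and the part of scale or batch cannot be told apart from that of MYC.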

How the results depend on the processing

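With an adjusted p below 0.05 in place of 0.01 and no fold cutoff, changed together, the members called went from 6 to 16 (11 higher) for MYC in the 6-library set, from 7 to 21 (17 higher) in the 12-library set, from 6 to 16 (9 higher) for the difference, and from 0 to 8, 8 and 12 for siAHR-2, siAHR-5 and siAHR-5 against siAHR-2, and the share of each change in this was not separated. The other alternatives kept these counts within 1.5 times, with 5 to 6, 6 to 7 and 5 to 7 when 1 library was left out. For the siRNA comparisons these are counts past both cutoffs, which stayed at 0. The siRNA calls at an adjusted p below 0.05 alone were rerun only without single libraries, and the part of scaling in them was not tested. Library medians over all genes were 11.61 to 11.62 with siCtrl, 11.65 with siAHR-2 and 11.67 to 11.68 with siAHR-5. Of 1517 recomputed values of single members, 27 changed sign, 17 of them on leaving out a library, and the cause was not tested. The 1517 include alternatives that leave the log2FC as it was, so that no sign could change. These are the cutoff, no trend, the mean minimum, one fit for all libraries and the replicate block. Fits without a library gave 744 of the values. For the siRNA comparisons only members with a limma adjusted p below 0.05 were included. After median centring the 6-library set gave -0.0229 for Rad54l, -0.0404 for Rad50 and -0.0115 for Rad54l2, and after quantile normalization -0.0115 for Rad51d and 0.0933 for Xrcc1. Mlh3 in the 12-library set was 0.0337 and 0.0252. For the difference, Fance was 0.0498 after centring, and Xrcc4 0.0759 after centring and 0.0305 after quantile normalization. Leaving out a library, the ranges in the 6-library set were -0.0191 to 0.0456 for Rad54l, -0.0191 to 0.0269 for Rad50, -0.0027 to 0.0667 for Rad51d and -0.0022 to 0.0550 for Rad54l2, that of Mlh3 in the 12-library set was -0.0583 to 0.0246, and those of the differences were -0.0696 to 0.0048 for Fance and -0.0828 to 0.0290 for Xrcc4. Centring added Brca1 (0.61) and Rad54b (0.60) to the differences that passed, and quantile normalization Rad54b (0.62) and Fancb (-0.60). Over all genes, centring moved the share of calls that were higher from 41.3% to 52.6% for the difference, from 33.9% to 22.1% for siAHR-2 and from 63.5% to 45.9% for siAHR-5, and quantile normalization moved the last to 50.2%. Same-numbered libraries did not deviate together in every pair (mean correlation -0.03 to 0.10), so the numbers are not taken as pairs; with a replicate block the members called stayed at 6, 7, 6, 0, 0 and 0, while over all genes the calls for siAHR-2 went from 62 to 0. Depth is unknown, so what it limits could not be computed.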
